A study of Mus musculus with 401 samples.

Results

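The sirtuins are a family of 7 genes in the mouse, Sirt1 to Sirt7, and their transcripts were followed here in single oocytes and in the cumulus cells around them. The members were chosen by symbol and matched to Ensembl identifiers, and all 7 were found among the 41092 genes of the first set of samples and the 42349 genes of the second. Oocyte-cumulus complexes were dissected from fully grown follicles of B6D2F1 (C57BL/6 x DBA/2) females. The germinal vesicle stage oocyte and a pool of its own cumulus cells were sequenced separately by RamDA-seq, which reads total RNA along its full length. Reverse transcription was primed with oligo(dT) and primers named NSRs. The first set compared Young (2 months), Middle (9 months) and Old (14 months) mice fed ad libitum (AL) with 9-month-old mice kept under calorie restriction (CR), all after an injection of equine chorionic gonadotropin or CARD HyperOva for hyperovulation. The CR mice were put on the restricted diet as adults in steps, housed singly and fed once a day. The second set compared mice of 2, 4, 9 and 14 months after hyperovulation and mice of 2 months without it. The libraries came from 2 Young, 4 Middle, 2 Old and 3 CR mouse labels in the first set, and from 5, 8, 4 and 5 labels at 2, 4, 9 and 14 months and 8 without hyperovulation in the second. Libraries of 1 label share that mouse, so that tests over libraries measure a spread within and between few mice, and the label Old1_2 appears to join more than 1 animal.

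Sirtuins remove acyl groups from lysines of other proteins and consume NAD in doing so, which ties their activity to the metabolic state of the cell. Sirt1, Sirt6 and Sirt7 act mainly in the nucleus, Sirt2 mainly in the cytoplasm, and Sirt3, Sirt4 and Sirt5 in mitochondria. Calorie restriction is the intervention with which the family is most often associated, and in oocytes sirtuins have been studied for their part in spindle organization, chromatin and protection from oxidative damage.

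On GRCm38, Sirt1 (ENSMUSG00000020063) lies on the minus strand of chromosome 10 at 63319005 to 63381704, and Sirt6 (ENSMUSG00000034748) on the same chromosome and strand at 81621785 to 81627797. Sirt2 (ENSMUSG00000015149) lies on the plus strand of chromosome 7 at 28766735 to 28788661 and Sirt3 (ENSMUSG00000025486) on its minus strand at 140863666 to 140882309. Sirt4 (ENSMUSG00000029524) lies on the minus strand of chromosome 5 at 115478010 to 115484725, Sirt5 (ENSMUSG00000054021) on the plus strand of chromosome 13 at 43365496 to 43395203, and Sirt7 (ENSMUSG00000025138) on the minus strand of chromosome 11 at 120618372 to 120625240. The 7 genes thus sit on 5 chromosomes. Exons of Sirt3 are shared with those of Ric8a and Psmd13 on the opposite strand, over 6.998% and 5.73% of its exon bases, and exons of Sirt7 with Mafg on the same strand over 2.41%, and whether counting used the strand is not given in the sources used here. In the first set 52.1% of the nonzero counts of Sirt3 and 45.9% of those of Sirt7 were not whole, against 19.2% for Sirt1, 4.79% for Sirt2, 2.11% for Sirt5, 0.685% for Sirt6 and 0% for Sirt4. Such values are not counts of whole reads, and how reads that fit several genes were divided is not given in the sources used here.

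Promoter windows of RefSeq (GRCm38.p6, 300 bases around a transcript start, most of them before it) are given for the members with the largest CR differences in oocytes, Sirt4, Sirt5 and Sirt6, and for Sirt1, whose window was the richest in the motif searched. Capitals mark the GC box GGGCGG on either strand (CCGCCC on the other), which 35.7% of 32851 promoter windows of the mouse hold.
Sirt4, chr5:115484248-115484547, minus strand: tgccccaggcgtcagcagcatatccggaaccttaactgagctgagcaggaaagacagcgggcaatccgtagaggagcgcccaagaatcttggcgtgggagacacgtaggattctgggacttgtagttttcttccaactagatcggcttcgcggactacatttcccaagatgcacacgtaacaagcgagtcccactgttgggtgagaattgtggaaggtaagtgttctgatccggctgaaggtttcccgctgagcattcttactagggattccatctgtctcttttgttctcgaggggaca
Sirt5, chr13:43365285-43365584, plus strand: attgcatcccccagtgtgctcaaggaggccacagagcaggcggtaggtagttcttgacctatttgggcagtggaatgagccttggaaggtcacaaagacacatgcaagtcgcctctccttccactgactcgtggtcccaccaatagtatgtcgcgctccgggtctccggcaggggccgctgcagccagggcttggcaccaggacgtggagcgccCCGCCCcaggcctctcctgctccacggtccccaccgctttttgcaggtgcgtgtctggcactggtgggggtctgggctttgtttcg
Sirt6, chr10:81627273-81627572, minus strand, the downstream of its windows: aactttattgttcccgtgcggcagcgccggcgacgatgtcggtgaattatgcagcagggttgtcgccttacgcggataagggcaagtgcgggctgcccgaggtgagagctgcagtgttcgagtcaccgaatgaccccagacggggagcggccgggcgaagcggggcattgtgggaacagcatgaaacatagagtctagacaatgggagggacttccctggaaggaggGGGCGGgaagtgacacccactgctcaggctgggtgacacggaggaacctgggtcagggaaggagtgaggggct
Sirt1, chr10:63338986-63339285, minus strand: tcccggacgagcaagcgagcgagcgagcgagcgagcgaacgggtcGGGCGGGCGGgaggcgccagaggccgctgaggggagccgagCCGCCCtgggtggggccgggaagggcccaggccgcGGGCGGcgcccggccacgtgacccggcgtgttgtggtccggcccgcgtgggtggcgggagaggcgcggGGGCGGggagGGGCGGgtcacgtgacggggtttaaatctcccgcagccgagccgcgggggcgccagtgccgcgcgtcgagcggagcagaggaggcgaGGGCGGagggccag
The window of Sirt4 held no GC box and had a GC content of 52%, that of Sirt5 held 1 GC box at 62%, and that of Sirt6 held 1 at 61.3%, while the window of Sirt1 held 7 at 79%. Sirt2 and Sirt7 held 1 each, and 1 window of Sirt3 held 4. The other motifs searched on both strands were CCAAT (37.4% of all windows), TATAAA (13.6%), CACGTG, which reads the same on both strands (7.15%), and GTAAACA, the core bound by FOXO factors (3.65%). Sirt1 held 2 matches of CACGTG, Sirt2 held 2 of CCAAT, and Sirt3 and Sirt5 held 1 of CCAAT. No window of the 7 genes held TATAAA or GTAAACA, and Sirt4 held none of the 5 motifs. The other window of Sirt6 and 1 of the 2 windows of Sirt3 held none either.

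The libraries used numbered 73 of oocytes and 71 of cumulus cells (first set) and 127 and 128 (second set). Median totals per group ran from 1986202 to 3578882 counts in oocytes and from 854688 to 2019007 in cumulus cells, and the highest of each were those of CR. Every CR oocyte library, at 2752043 to 4536690 counts, was deeper than every Middle oocyte library, at 1903858 to 2624876, so diet and depth cannot be told apart in the deposited totals. The oocyte marker Gdf9 had a median of 4409 CPM in oocytes and 1.39 CPM in cumulus cells of the first set, and summed cumulus markers in oocytes had group medians of 0.825% to 3.497% of the usual cumulus level, with Old at the top. The oocyte library of 1 complex of mouse Middle3 correlated with cumulus cells (r = 0.937) above oocytes (r = 0.744), and both libraries of that complex were left out. Mouse Middle3 was then left with 1 oocyte library and 1 cumulus library, which stand for a whole mouse in the tests over mice. Levels are in CPM, the counts of a gene per 1000000 counts of its library, and called differences are those at a false discovery rate (FDR) of 5% over all genes tested in edgeR.

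The first question was which sirtuins differ between CR and AL mice at 9 months. In oocytes, Sirt4 fell to 0.367 of its Middle level, Sirt6 fell to 0.694, and Sirt5 rose 1.58-fold. Sirt2 and Sirt7 also fell, by less, and Sirt1 and Sirt3 did not pass the test. Thus 5 of 7 sirtuins were called, against 30% of the 25276 genes tested, with 1 higher (15.8% of all genes) and 4 lower (14.2% of all genes). The median log2 fold change of the 7 members was -0.24, beside 0.0023 over all genes tested.

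Sirt4 encodes a mitochondrial sirtuin known for restraining glutamate dehydrogenase. Its level in Middle oocytes was 6.63 CPM at the lowest, 11.2 at the median and 17.9 at the highest over 14 libraries, and in CR oocytes 2.62, 3.91 and 8.31 over 27 libraries. All but 1 of the CR oocytes, 26 of 27, lay below the lowest Middle oocyte, and 13 of 14 Middle oocytes lay above the highest CR oocyte. The log2 fold change was -1.45 (SE 0.13, 95% interval of the fold 0.309 to 0.435, edgeR adjusted p = 1.32e-12), which ranked Sirt4 at 85 among all genes tested. The 3 CR mice had mean levels of 4.15, 4.26 and 4.25 CPM and the 4 Middle mice 10.6, 12.8, 11.3 and 11.99 CPM. The same 3 CR means lay below those of all 38 other mouse labels of both sets, which ran from 9.55 to 16.5 CPM. Over mouse means the groups did not overlap, and the exact permutation test gave p = 0.0571, two-sided, the smallest that 4 against 3 mice allow.

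Sirt5 encodes the mitochondrial enzyme that removes succinyl and malonyl groups. Middle oocytes had 9.98 CPM at the lowest, 14.2 at the median and 18.3 at the highest, and CR oocytes 15.3, 22.6 and 29.5. Most CR oocytes, 23 of 27, lay above the highest Middle oocyte, and 9 of 14 Middle oocytes lay below the lowest CR oocyte. The log2 fold change was 0.66 (SE 0.094, 95% interval of the fold 1.39 to 1.80, edgeR adjusted p = 2.11e-07). The CR mice had means of 25.4, 19.8 and 22.99 CPM and the Middle mice 15.95, 12.6, 18.2 and 14.8, without overlap (exact permutation p = 0.0571, the smallest possible). The Middle mean nearest to CR, 18.2 CPM, was that of the 1 oocyte of Middle3. Of the 38 other mouse labels, 37 lay below all CR means, and the highest, at 19.9 CPM, lay just above the lowest CR mean.

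Sirt6 encodes a chromatin deacetylase known for its part in DNA repair and telomere maintenance. Its level in Middle oocytes was 28.1 CPM at the lowest, 39.2 at the median and 52.7 at the highest, and in CR oocytes 16.97, 26.1 and 43.1. Of the CR oocytes 20 of 27 lay below the lowest Middle oocyte, while 4 of 14 Middle oocytes lay above the highest CR oocyte. The log2 fold change was -0.53 (SE 0.090, 95% interval of the fold 0.614 to 0.785, edgeR adjusted p = 8.41e-06). CR mice had means of 29.2, 25.5 and 27.03 CPM, below the 34.2, 41.3, 36.01 and 41.5 of the Middle mice (exact permutation p = 0.0571, the smallest possible) and below all 38 other labels, the lowest of which was at 31.7 CPM.

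Sirt2, whose product deacetylates tubulin, had 5.15, 7.81 and 13.3 CPM at the lowest, median and highest in Middle oocytes and 2.81, 6.90 and 9.17 in CR oocytes. The ranges overlapped widely, and the log2 fold change was -0.32 (SE 0.13, edgeR adjusted p = 0.0490). Sirt7, which encodes a nucleolar sirtuin linked to transcription of ribosomal RNA genes, had 42.7, 65.0 and 81.0 CPM in Middle and 27.6, 53.9 and 69.5 in CR oocytes. Only 3 of 27 CR oocytes lay below the lowest Middle oocyte, and the log2 fold change was -0.24 (SE 0.096, edgeR adjusted p = 0.0492). The call of Sirt2 was lost under 12 of 17 alternatives and that of Sirt7 under 10, including counts summed per mouse (edgeR adjusted p = 0.235 for Sirt2 and 0.392 for Sirt7).

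**Figure D1:**
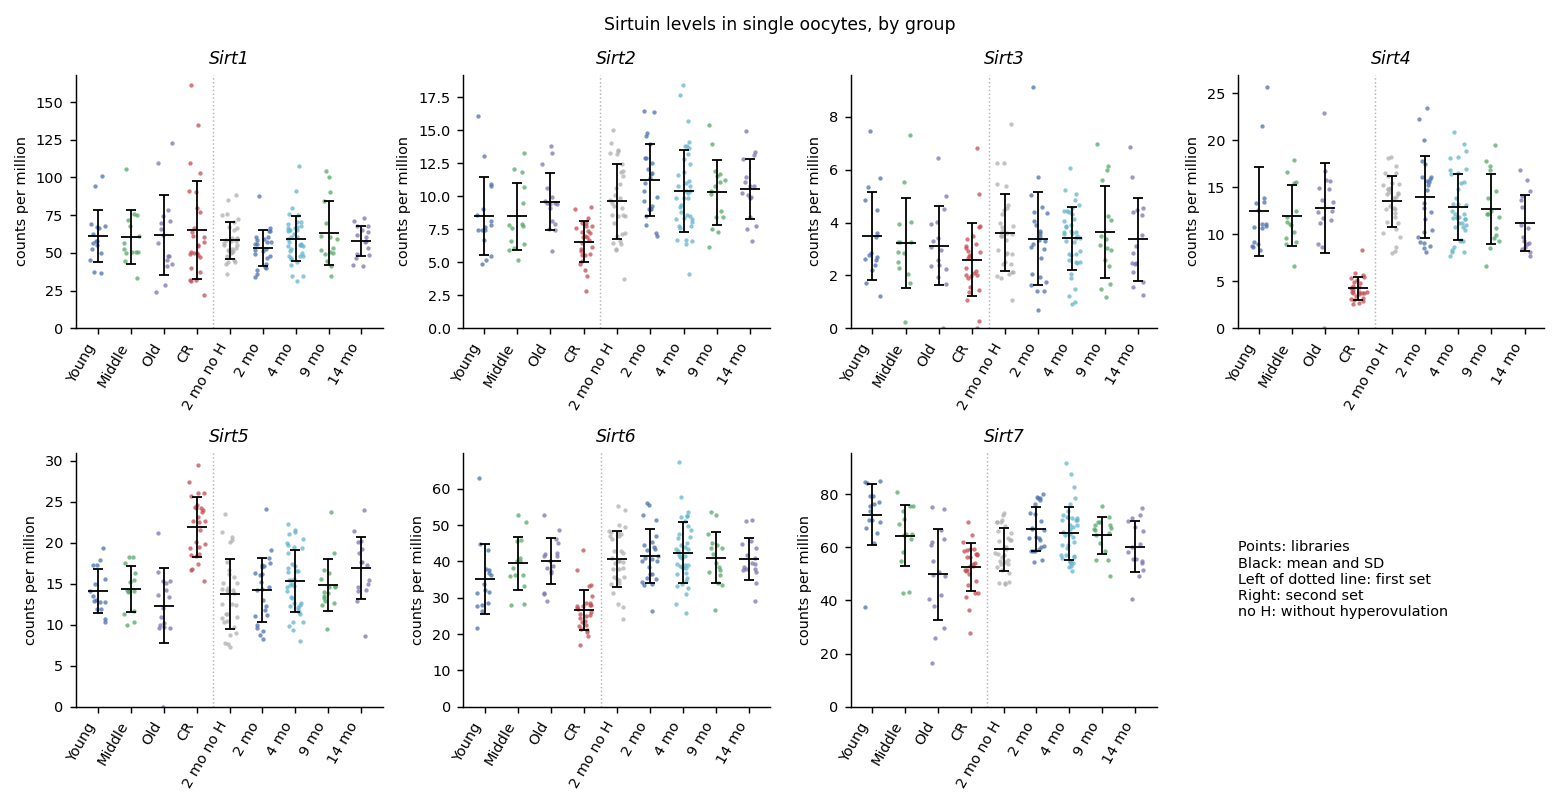
Level of each sirtuin in single oocytes, in CPM on linear axes that start at 0, with 1 point per library and the mean and SD of each group in black. CR oocytes had a mean of 4.24 CPM for Sirt4 against 11.99 in Middle oocytes, and a mean of 21.9 against 14.3 for Sirt5.

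Sirt1, which encodes the nuclear deacetylase most studied in calorie restriction, was not called in CR oocytes. Its level was 33.6, 54.8 and 105.9 CPM at the lowest, median and highest in Middle oocytes and 22.03, 55.2 and 161.3 in CR oocytes, and the log2 fold change was 0.16 (SE 0.19, 95% interval of the fold 0.862 to 1.45, edgeR adjusted p = 0.581). The CR mice differed among themselves, with means of 58.8 CPM in CR1 (3 oocytes), 89.1 in CR2 (11 oocytes) and 46.1 in CR3 (13 oocytes). Without CR3 the log2 fold change was 0.49 (adjusted p = 0.0414), and without CR2 it was -0.26, so that the sign turned with the mouse left out. The coefficient of variation of Sirt1 was 50.1% in CR oocytes and 29.5% in Middle oocytes, where counting alone would give 6.55% and 8.45%. Sirt3, encoding the main mitochondrial deacetylase, had a median of 7.25 counts in Middle and 9.5 in CR oocytes, and its log2 fold change of -0.23 (95% interval of the fold 0.590 to 1.24, edgeR adjusted p = 0.580) did not pass the test.

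The differences of Sirt4 and Sirt5 were called under all 17 alternatives, with log2 fold changes of -1.62 to -1.22 and 0.53 to 0.77. When trends of the counts with length and GC content were removed from each library, 2 of 7 sirtuins were called, Sirt4 lower and Sirt5 higher, against 27% of all genes (13.6% and 13.4%), and Sirt6 went to -0.17 (edgeR adjusted p = 0.206). Summed per mouse, Sirt4, Sirt5 and Sirt6 were called (adjusted p = 0.00209, 0.0284 and 0.0365), against 16% of the 16541 genes tested (6.98% lower and 9.02% higher). When all libraries were drawn to equal depth, the log2 fold change was -1.62 for Sirt4, 0.72 for Sirt5 and -0.59 for Sirt6. The summed cumulus markers had medians of 1.91% in Middle and 1.498% in CR oocytes, and without oocytes above 5%, an alternative chosen after seeing the data, Sirt4, Sirt5 and Sirt6 were called with -1.51, 0.65 and -0.57. The share of mitochondrial transcripts had medians of 0.666% in Middle and 0.961% in CR oocytes, and its part in these differences was not tested.

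**Figure D2:**
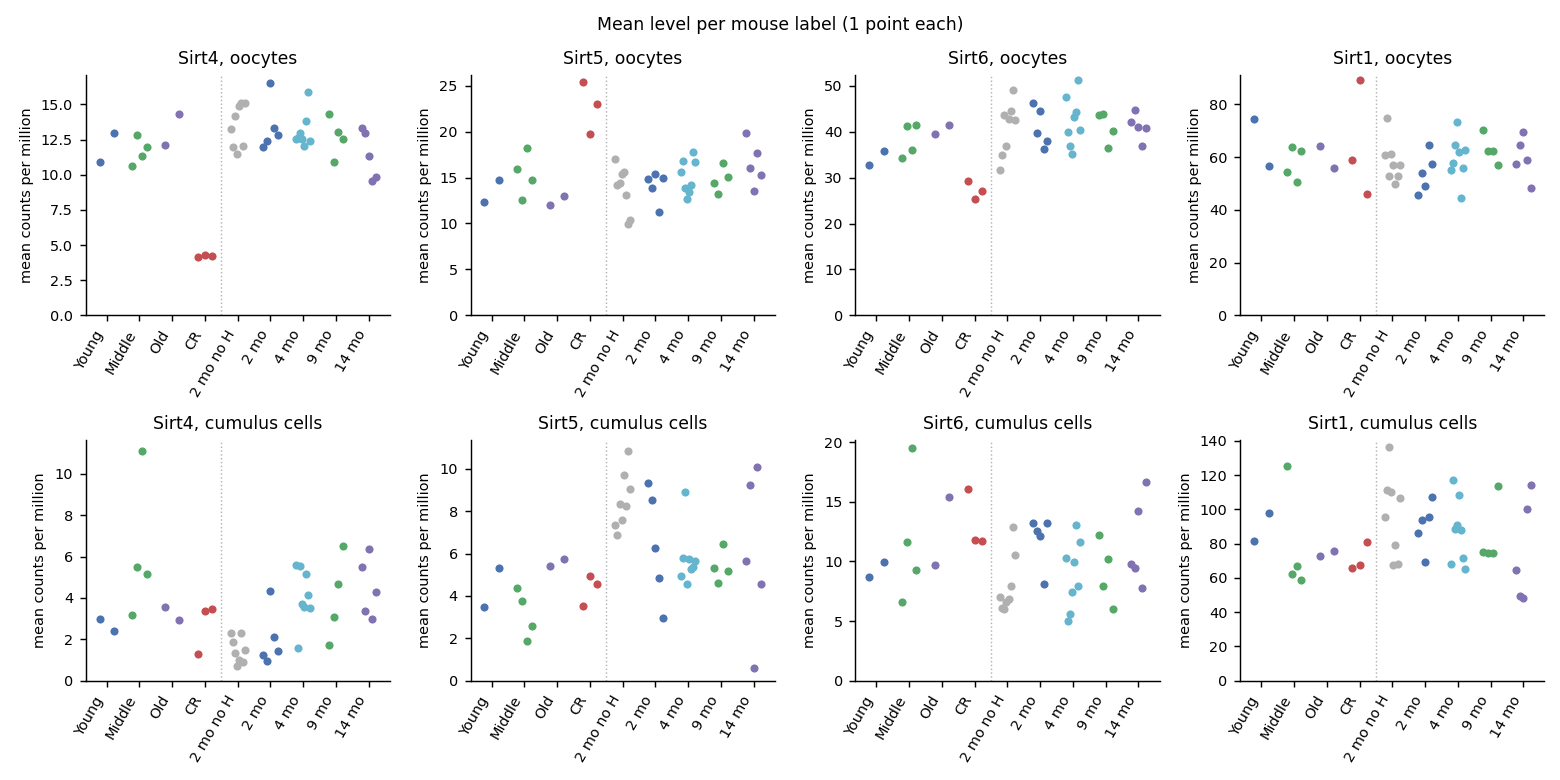
Mean level per mouse label of Sirt4, Sirt5, Sirt6 and Sirt1 in oocytes (top) and cumulus cells (bottom), in CPM, with 1 point per mouse label and the first set to the left of the dotted line. The 3 CR points of Sirt4 in oocytes lay at 4.15 to 4.26 CPM and all 38 others at 9.55 to 16.5 CPM, whereas the CR points in cumulus cells lay among the others.

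In cumulus cells none of the 7 sirtuins was called between Middle and CR, beside 3.58% of the 24657 genes tested. Only Sirt7, 1 of the 7, had an unadjusted p under 0.05 in edgeR, and DESeq2 called 0. Each library is a pool, in which fewer cells of a type and less RNA per cell cannot be told apart. Sirt7 had 10.2, 21.2 and 40.8 CPM at the lowest, median and highest in Middle and 17.5, 28.7 and 68.5 in CR pools, with a log2 fold change of 0.48 (SE 0.18, 95% interval of the fold 1.10 to 1.76, edgeR adjusted p = 0.121). Without CR3 this difference was called at 0.84 (adjusted p = 0.00724). Sirt4 had 0.974, 4.79 and 11.1 CPM in Middle and 0, 2.00 and 9.61 in CR pools, with a log2 fold change of -0.65 (95% interval of the fold 0.405 to 1.002, edgeR adjusted p = 0.301), from a median of 6 counts in Middle pools and 4 in CR pools. On the log2 scale the mouse means of Sirt4 did not overlap (difference -1.04, exact permutation p = 0.0571, the smallest possible). In CPM they did, with the highest CR mouse at 3.47 and the lowest Middle mouse at 3.17. The highest Middle mean, 11.1 CPM, was the 1 pool of Middle3.

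The fold changes of the remaining members in cumulus cells had 95% intervals of 0.786 to 1.16 for Sirt1, 0.737 to 1.20 for Sirt2, 0.641 to 1.036 for Sirt3, 0.788 to 2.19 for Sirt5 and 0.892 to 1.67 for Sirt6. Whether the response to CR differed between the 2 cell types was tested as an interaction, in which 12.8% of 30659 genes were called, 8.46% with a higher value in cumulus cells. It was called for 2 of 7 sirtuins, Sirt6 (difference of log2 fold changes, cumulus minus oocytes, 0.90, SE 0.23, edgeR adjusted p = 0.00386) and Sirt7 (0.81, SE 0.19, adjusted p = 0.00168). For Sirt4 the difference was 0.90 (SE 0.33, adjusted p = 0.0636), which was called with filterByExpr and without CR1 or Middle3 (lowest adjusted p = 0.0291), and for Sirt5 -0.18 (SE 0.36, adjusted p = 0.888). Summed per mouse, none of the 7 interactions was called by edgeR, and adjusted p was 0.571 for Sirt6 and 0.488 for Sirt7. The test treats the 2 libraries of a complex as independent. With the complex as a block in limma, an alternative chosen after seeing the data, Sirt6 (0.75, adjusted p = 0.0401) and Sirt7 (0.77, adjusted p = 0.0237) were called. The shares of all genes called with counts summed per mouse or with the block are not given here. These calls, or their absence, can thus not be set against all genes.

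**Figure D3:**
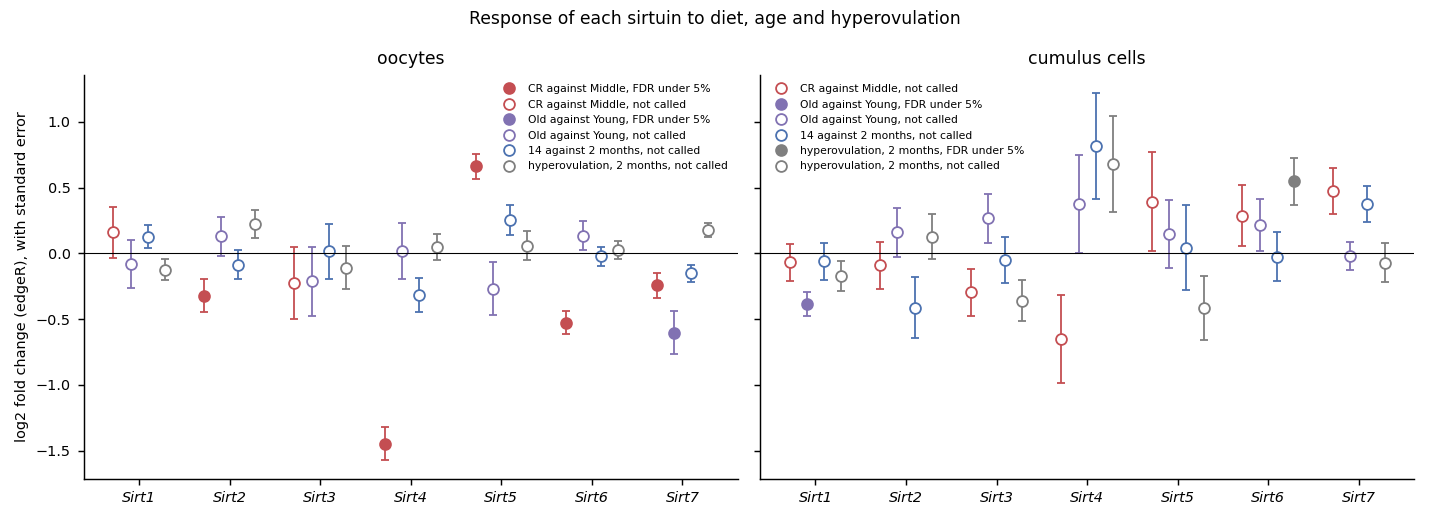
Log2 fold change of each sirtuin with its standard error in 4 comparisons, CR against Middle, Old against Young, 14 against 2 months and 2 months with against without hyperovulation, in oocytes (left) and cumulus cells (right). Filled points passed an FDR of 5%, which in oocytes were 5 members under CR and Sirt7 with age, and in cumulus cells Sirt1 with age and Sirt6 with hyperovulation.

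Genes that make or use NAD, work with sirtuins or are modified by them, and the zinc-dependent deacetylases, were listed in 6 groups of 77 genes in all. Between Middle and CR oocytes 16 of the 69 tested were higher and 14 lower, which is 43.5%, beside the 30% of all genes (15.8% higher and 14.2% lower), and the counts of each group below stand beside those same shares. The lists were chosen with earlier results of these data known, and all genes include those counted in only 5 libraries. The shares are therefore not a test of the lists, here or in other comparisons. List genes were tested over libraries of 4 Middle and 3 CR mice. No values per mouse or with length and GC correction are given for them. Of 12 tested genes of NAD synthesis and salvage, 3 rose and 2 fell. Naprt, which starts NAD synthesis from nicotinic acid, rose (log2 fold change 0.65, edgeR adjusted p = 0.0479), as did Afmid of the route from tryptophan (0.64, adjusted p = 0.00408). Nampt, the rate-limiting enzyme of NAD salvage from nicotinamide, fell from 16.9 ± 3.84 CPM (SD, n = 14) to 11.8 ± 4.04 (SD, n = 27), a log2 fold change of -0.47 (adjusted p = 0.00346). Nadk, which turns NAD into NADP, also fell (-0.41, adjusted p = 2.13e-05).

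Of 6 tested consumers of NAD outside the family, 3 rose and 1 fell. Tnks2, a tankyrase, rose from 69.7 to 100.1 CPM (log2 fold change 0.58, edgeR adjusted p = 0.000123) and Parp1, the main poly(ADP-ribose) polymerase, from 28.9 to 35.4 CPM (0.34, adjusted p = 0.0108). Parp3, which fell, was at 0.246 CPM in Middle oocytes, so few counts stand behind it. Among 13 partners and regulators of sirtuins, the acetyltransferase gene Ep300 rose (0.46, adjusted p = 0.000570), Kat8 fell (-0.21, adjusted p = 0.0224), and 11 were not called.

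Of 13 nuclear substrates, 2 rose and 7 fell, with a median log2 fold change of -0.30. Nr1h2, a liver X receptor gene, fell from 45.4 to 28.8 CPM (log2 fold change -0.61, edgeR adjusted p = 1.11e-08), and Foxo4 fell at a low level (-1.10, adjusted p = 0.0372), while Xrcc5 of DNA end joining (0.45) and Hif1a (0.40) rose. Of 14 tested mitochondrial substrates, 5 rose and 2 fell. Ppif, the mitochondrial cyclophilin gene (0.58), and Acadm of fatty acid oxidation (0.54) were among those that rose, and the DNA glycosylase gene Ogg1 (-0.36) was among those that fell. Among 11 zinc-dependent deacetylases, which work without NAD, Hdac2 rose from 31.7 to 46.9 CPM (0.61, adjusted p = 8.13e-09), Hdac3 rose (0.34) and Hdac5 fell (-1.57, adjusted p = 0.0315), and 8 were not called.

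In cumulus cells 1 of 70 tested genes of these groups (1.43%) was called between Middle and CR, beside 3.58% of all genes. Hdac7, a class IIa deacetylase gene, rose from 5.96 ± 3.43 CPM (SD, n = 15) to 18.9 ± 9.33 (SD, n = 25), a log2 fold change of 1.66 (edgeR adjusted p = 0.000101). These pools came from 4 Middle and 3 CR mice, and no test over mice is given for Hdac7. All other list members in cumulus cells, NAD genes included, had no call.

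With age in the first set, none of the 7 sirtuins was called in oocytes between Young and Middle or between Middle and Old, where 0% of all genes were called in each comparison, DESeq2 called 0 of the 7 as well, and the unadjusted p was under 0.05 for 0 and 1 members. Between Young and Old oocytes 1 of 7 was called, beside 7.39% of all genes (3% lower). Sirt7 had 37.5, 74.6 and 84.8 CPM at the lowest, median and highest in Young oocytes and 16.6, 50.2 and 75.2 in Old oocytes, for a log2 fold change of -0.60 (SE 0.17, edgeR adjusted p = 0.0295). The Young mice had means of 70.9 and 72.8 CPM, and the Old labels 43.9 in Old1_2 (11 oocytes) and 63.1 in Old3 (5 oocytes). Without Old1_2 the log2 fold change was -0.19, and with the cumulus marker share as a covariate the call was also lost, with marker medians of 1.02% in Young and 3.497% in Old oocytes. The mean share of mitochondrial transcripts was 1.87% in Old1_2, 0.656% in Old3, and 0.675% and 1.08% in the Young mice, and its part in this difference was not tested. With 2 labels in each group the exact permutation test over mouse means cannot go below p = 0.333.

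The other 6 members had log2 fold changes of -0.27 (Sirt5) to 0.13 (Sirt6) between Young and Old oocytes, and none passed the test. The Young libraries enter the comparisons with both Middle and Old mice. A single Old oocyte of Old1_2 had a count of 0 for Sirt3, Sirt4 and Sirt5 together, where a count of 0 allows up to 2.52 CPM. In cumulus cells none of the 7 was called between Young and Middle (1.46% of all genes) or between Middle and Old (0.0433%), and 1 was called between Young and Old (3.95%, of which 2.19% lower). An unadjusted p under 0.05 was found for 1 of the 7 in each of the first 2 comparisons, in which DESeq2 called 0. Sirt1 had 73.8, 93.7 and 137.4 CPM at the lowest, median and highest in Young pools and 55.3, 70.5 and 102.4 in Old pools, a log2 fold change of -0.38 (SE 0.090, edgeR adjusted p = 0.00999). The mouse labels did not overlap, with 81.4 and 97.9 CPM in Young and 73.1 and 75.7 in Old, but the call was lost when counts were summed per mouse and without Old1_2 or Young2.

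In the second set, where ages were spread over more mice, none of the 7 sirtuins was called in either cell type between 2 and 4, 2 and 9, 2 and 14 or 9 and 14 months. The shares of all genes called were 0.0126%, 0.16%, 1.15% and 0.0136% in oocytes and 0.519%, 1.93%, 1.7% and 0.143% in cumulus cells. In that order 0, 1, 3 and 0 of the 7 had an unadjusted p under 0.05 in oocytes and 2, 0, 2 and 1 in cumulus cells, and DESeq2 called 0 throughout. The comparisons with 2 months share those mice. In oocytes between 2 and 14 months Sirt7 had a mean of 67.0 ± 8.26 CPM (SD, n = 24) and 60.2 ± 9.52 (SD, n = 16), a log2 fold change of -0.15 (95% interval of the fold 0.824 to 0.985, edgeR adjusted p = 0.289). In the first set the fold of Sirt7 was 0.659, with an interval of 0.526 to 0.825, and the difference between the sets was not tested. Sirt4 had a fold of 0.804 (adjusted p = 0.256) and Sirt5 of 1.19 (adjusted p = 0.303), and Sirt6 was at a log2 fold change of -0.02 (95% interval of the fold 0.890 to 1.09).

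In cumulus cells of the second set, Sirt1 had a log2 fold change of -0.06 between 2 and 14 months (95% interval of the fold 0.793 to 1.16, edgeR adjusted p = 0.908), beside a fold of 0.766 with an interval of 0.678 to 0.865 in the first set. Sirt4 was at 0.82 (adjusted p = 0.349) and Sirt7 at 0.38 (adjusted p = 0.155). Over mouse means Sirt4 and Sirt7 gave exact permutation p = 0.0159 and 0.0317 with 5 mice a group, which are not adjusted for the number of genes or comparisons. Sirt4 had a median of 1 count per pool at 2 months and 3 at 14 months, so its level in cumulus cells rests on few counts.

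**Figure D4:**
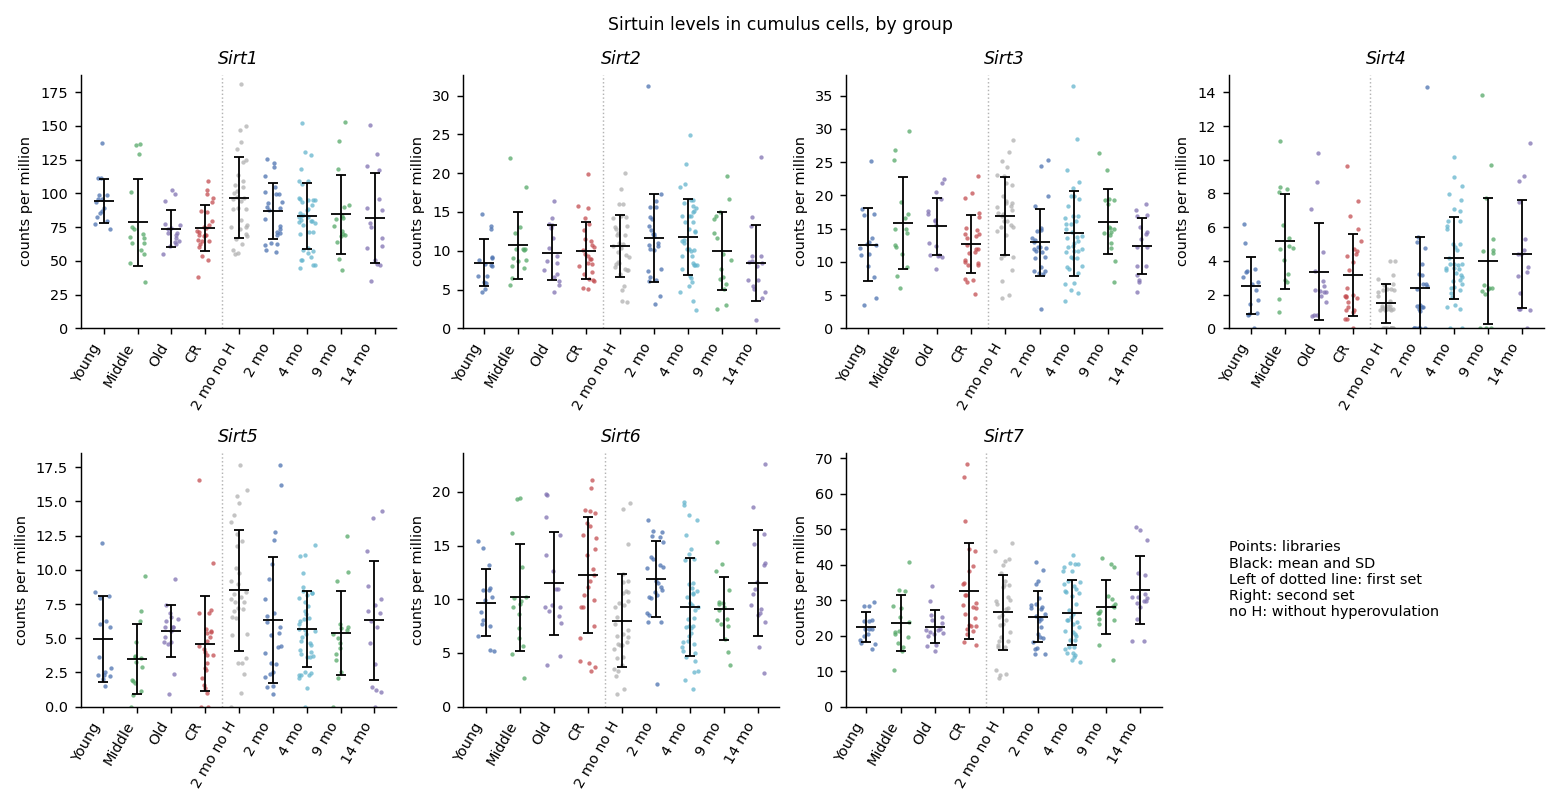
Level of each sirtuin in pools of cumulus cells, in CPM on linear axes that start at 0, with 1 point per library and the mean and SD of each group in black. For Sirt7 the groups of the first set had means of 22.4 CPM (Young), 23.6 (Middle), 22.5 (Old) and 32.6 (CR), with wide overlap.

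Among the 6 groups, the zinc-dependent deacetylases included, 8 of 71 tested genes (11.3%, beside 7.39% of all genes) were called between Young and Old oocytes. Of these, 5 were higher and 3 lower. Between Young and Old cumulus cells 2 of 70 (2.86%, beside 3.95% of all genes) were called, and Rela and Xbp1 fell. Between 2 and 14 months none of 69 was called in oocytes, beside 1.15% of all genes, and 2 of 70 (2.86%, beside 1.7%) in cumulus cells, where Foxo1 and Hdac5 fell. These names were chosen after their values were seen.

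Hyperovulation, compared at 2 months in the second set, moved none of the 7 sirtuins past the test in oocytes, where 0.0299% of all genes were called, while 2 of the 7 had an unadjusted p under 0.05 and DESeq2 called 0. The smallest adjusted p was that of Sirt7 (log2 fold change 0.18, SE 0.052, edgeR adjusted p = 0.314). In cumulus cells 1 of 7 was called, beside 13.2% of all genes (6.18% higher). Sirt6 had 1.22, 6.96 and 18.9 CPM at the lowest, median and highest without hyperovulation (32 pools) and 2.07, 11.6 and 17.3 with it (24 pools), a log2 fold change of 0.55 (SE 0.18, edgeR adjusted p = 0.0312). The mouse means ran from 6.01 to 12.9 CPM in 8 mice without and from 8.09 to 13.3 in 5 mice with hyperovulation (exact permutation p = 0.0155). The median was 6 counts per pool without and 10 with hyperovulation. With counts summed per mouse the call was lost (0.53, edgeR adjusted p = 0.223), as it was with length and GC correction (0.41, adjusted p = 0.103), with the prefix of the library labels as a covariate (0.49, adjusted p = 0.0502) and when any 1 of 7 mice, of 13 in all, was left out. Summed cumulus markers had medians of 56.5% of the usual cumulus level without and 117% with hyperovulation, and their part in this difference was not tested.

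In the same comparison 12 (16.9%) of 71 tested genes of the 6 groups were called in cumulus cells, 5 higher and 7 lower, beside 13.2% of all genes, and none of 70 in oocytes, beside 0.0299%. A difference between oocytes and cumulus cells in the response to age (4.74% of all genes) or to hyperovulation (4.07%) was called by edgeR for none of the 7 sirtuins (1 and 2 had an unadjusted p under 0.05), with Sirt7 at 0.61 (SE 0.21, edgeR adjusted p = 0.0705) for age and Sirt6 at 0.52 (SE 0.17, adjusted p = 0.0693) for hyperovulation.

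The 2 cell types themselves differed in most members, as in most genes, and the median log2 fold change of all genes, cumulus cells relative to oocytes, was 0.24 (first set) and 0.37 (second set). In the first set 6 of 7 were called between oocytes and cumulus cells, beside 90% of 32407 genes (48.2% higher and 41.9% lower in cumulus cells), and in the second 7 of 7, beside 92.2% of 33123 (51.2% and 41.1%). In both sets Sirt4, Sirt5, Sirt6 and Sirt7 were lower in cumulus cells, by log2 fold changes of -1.74, -2.30, -2.05 and -1.63 in the first and -2.34, -1.51, -2.43 and -1.55 in the second. Sirt3 was higher in cumulus cells, at 1.67 and 1.70 (edgeR adjusted p = 1.53e-31 and 1.05e-65). Sirt1 was not called in the first set (-0.15, adjusted p = 0.0815), where with counts summed per mouse it was lower in cumulus cells (-0.47, adjusted p = 0.00757), and was higher in cumulus cells in the second (0.25, adjusted p = 1.57e-06), though not called there with counts summed per mouse (0.15, adjusted p = 0.0576). Sirt2 was lower at -0.16 and -0.28, but in the first set its sign turned to 0.094 under DESeq2 and 0.081 with RLE normalization. Its call there was lost with filterByExpr (-0.10, adjusted p = 0.223) and with the complex as a block in limma (-0.14, adjusted p = 0.0974). In CPM, before TMM normalization, the mean of Sirt1 was higher in cumulus cells in every group of the first set. It was 78.5 against 60.4 in Middle and 74.4 against 65.0 in CR. The mean of Sirt2 was higher in cumulus cells in Middle (10.7 against 8.48), Old and CR, but not in Young (8.48 against 8.54). The direction of Sirt1 and Sirt2 in the first set thus depended on the normalization.

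Compared per length, in CPM per kilobase of gene, Middle oocytes held most of Sirt6 (14.2 ± 2.66), then Sirt7 (12.5 ± 2.24) and Sirt1 (11.3 ± 3.35), which did not differ beyond their SD (n = 14 for each). Sirt4 followed at 5.0 ± 1.36, below Sirt1 in 14 of 14 oocytes. Then came Sirt5 at 2.35 ± 0.453 and Sirt2 at 1.68 ± 0.510, whose SD ranges overlapped. Sirt5 stood above Sirt2 in 13 of 14 oocytes, and Sirt3 was lowest at 0.540 ± 0.284. Oocytes of 9 months in the second set gave the same order, from Sirt6 at 14.7 to Sirt3 at 0.610. In CR oocytes the order was Sirt1 (12.2), Sirt7 (10.2), Sirt6 (9.56), Sirt5 (3.60), Sirt4 (1.77), Sirt2 (1.31) and Sirt3 (0.434), so that Sirt5 stood above Sirt4 in 27 of 27 CR oocytes, while Sirt4 stood above Sirt5 in 14 of 14 Middle oocytes.

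Per length, Sirt1 had the highest level of the 7 in cumulus cells. In Middle pools it stood at 14.7 ± 6.01 CPM per kilobase (SD, n = 15), above Sirt7 in 15 of 15 pools. Sirt7 (4.59), Sirt6 (3.65), Sirt3 (2.66), Sirt4 (2.15) and Sirt2 (2.13) followed, each within an SD of the next, and Sirt5 was lowest at 0.571. Sirt6 and Sirt7 were thus near Sirt1 in oocytes and well under it in cumulus cells.

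**Figure D5:**
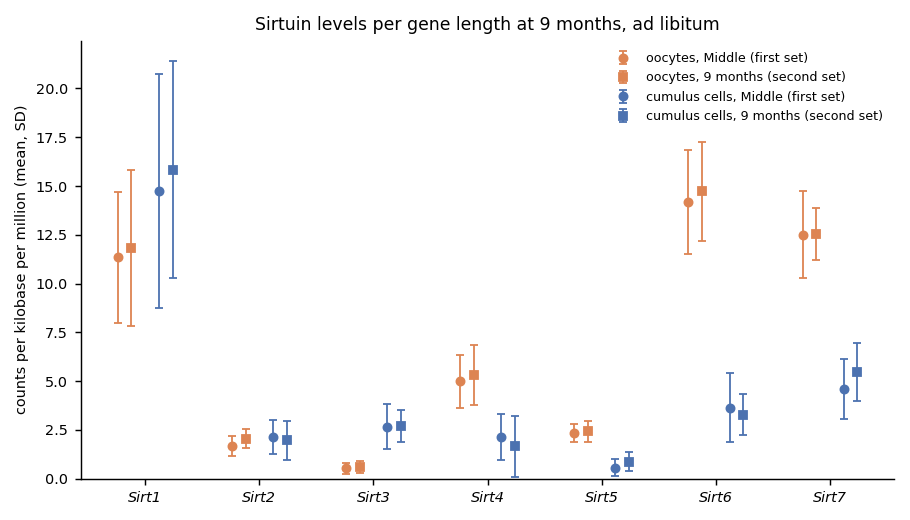
Mean level with SD of each sirtuin per gene length, in CPM per kilobase, in oocytes and cumulus cells of AL mice at 9 months in the first and second set. Sirt6, Sirt7 and Sirt1 had the highest means in oocytes, and Sirt1 stood alone at the top in cumulus cells, at 14.7 and 15.8.

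Over the 41 mouse labels of both sets, with mean log2(CPM + 1) centred within each set, the members followed one another little in oocytes. The highest Pearson correlation between members was that of Sirt4 and Sirt6 (r = 0.646), which was 0.450 without the CR mice, and the lowest that of Sirt4 and Sirt5 (r = -0.533), which was -0.218 without them. In cumulus cells the lowest was Sirt1 with Sirt7 (r = -0.418, and -0.405 without the CR mice), and without the CR mice it was Sirt4 with Sirt5 (-0.449, and -0.402 with them). Sirt4 and Sirt5 had medians of 4 and 7 counts per cumulus pool in the first set and 2 and 5 in the second. Their correlation thus rests on few counts. Each set was centred with the CR mice included, and not again after they were left out. Values without the CR mice may thus still carry part of the CR difference, as an offset between the sets. Labels share their depth and set, and these values are given as a description.

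Of 8885 genes compared in oocytes, the genes most like Sirt4 were Kctd13 (r = 0.920, and 0.784 without CR) and Zfp296 (0.919 and 0.801). The values without CR rest on the same centring, with the CR mice included. Those most like Sirt7 were Rab3d (0.878, and 0.866 without CR) and Trim28 (0.874 and 0.863). For Sirt6 they were Gm44986 (0.813, and 0.742 without CR) and Abhd11 (0.806 and 0.711). For Sirt5 they were Slc39a6 (0.735, and 0.606 without CR) and Gm45062 (0.735 and 0.606). Sirt1 was nearest to Rtn4 (0.769, and 0.772 without CR) and Hsph1 (0.737 and 0.663). Sirt2 was nearest to Prmt3 (0.604, and 0.606 without CR) and B9d1 (0.601 and 0.553), and Sirt3 to Tmem62 (0.634 and 0.602). In cumulus cells, over 9784 genes, Sirt1 was nearest to Ppm1b (0.856) and Crlf3 (0.846), Sirt7 to Srebf2 (0.784) and Dcbld2 (0.754), Sirt3 to Rsu1 (0.707) and Zhx3 (0.698), Sirt2 to Tnip1 (0.692), Sirt6 to Gm29253 (0.689) and Slc43a3 (0.687), and Sirt5 to Sbno1 (0.549) and Zfp263 (0.544). Sirt4 was below the minimum of a median of 5 counts in cumulus cells and was not compared with these genes there.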

How the data were processed

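Single oocytes and pools of their cumulus cells were sequenced by RamDA-seq with 146 (first set) and 255 (second set) deposited libraries. Per the study's methods, the authors mapped trimmed reads to GRCm38 with HISAT2 2.0.5 and counted reads of GENCODE genes, multi-mapped ones included, with featureCounts 1.5.1. The authors deposited expected counts per gene, of which 36.8% (first set) and 35.1% (second set) of the nonzero values were not whole, so they were rounded to whole numbers although raw counts had been planned for. The authors also deposited RPKM values. Gene lengths were derived from these and the counts, as the median over libraries other than CR. With those lengths the RPKM values matched the counts within 1% except in CR libraries, where 7.46% matched. Outside CR the lengths had been fitted to the same libraries, so the match there was largely built in. RPKM values were not tested themselves, but the lengths entered the values per length and the length and GC correction.

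Every library column was matched to a sample by name (0 columns were left over). Symbols, coordinates and overlaps came from GENCODE vM21, which named 43512 of the 43633 identifiers, and promoters from RefSeq. No pair of libraries held identical values. The complex of Middle3 whose oocyte library resembled cumulus cells was removed.

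Differences were tested with the quasi-likelihood test of edgeR 4.0.16 (R 4.3.3, TMM normalization, genes counted in at least 5 libraries compared) with Benjamini-Hochberg adjustment at 5% over all genes tested. Mouse means of log2(CPM + 1) were compared by two-sided exact permutation tests, whose p-values are not adjusted (scipy 1.17.1). Oocyte and cumulus responses were compared by an interaction term. Intervals are at 95%. On simulated counts for Middle against CR oocytes (24664 genes), 68 of 100 changes of 1.5-fold and 91 of 100 of 2-fold were recovered with 15 false calls, and for cumulus cells (24059 genes) 41 and 80 of 100 with 15 false calls. The changed genes were drawn from those above a minimum level. Libraries were simulated as independent, without differences between mice, so the false calls do not cover libraries that share a mouse. A simulated trend with gene length, with no gene changed, gave 6468 and 4935 calls, and 20 and 9 after the correction. That trend used the same gene lengths as the correction, so its removal does not show how well trends in the real counts were removed. Alternatives were DESeq2 1.42.0, RLE normalization, other filters, counts summed per mouse, length and GC correction, covariates, equal depth and leaving out each mouse, and limma 3.58.1 for the block. Figures were drawn with matplotlib 3.10.9.

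The members and gene lists were chosen with earlier results of these data known. Named were all 7 sirtuins, the 2 called list genes with the largest rise and the 2 with the largest fall between Middle and CR, and the 2 genes most like each sirtuin over mouse labels (mean of at least 10 CPM, and only for members with a median of at least 5 counts). Depth per library is given as total counts, and intervals within a library would cover counting error only. Some genes that the naming rule picked are not reported here.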

Additional observations from a re-analysis of the deposited data

Results flagged for a closer look

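In 5 cases the mean of a sirtuin in 1 mouse stood apart from the other mice of their group. In cumulus cells, mouse 2mo35 had the lowest Sirt6 level of the 5 mice at 2 months, 8.09 CPM, with the others at 12.1 to 13.3. Mouse 4mo27 had the highest Sirt5 level of 8 mice at 4 months, 8.90 CPM, with the others at 4.54 to 5.78. Sirt1 was highest in mouse 9mo24, at 113.7 CPM with the other 3 mice at 74.4 to 74.97, and in mouse Middle1, at 125.6 CPM with the other 3 mice at 58.5 to 67.2. In oocytes, mouse 2moNoH11 had the highest Sirt1 level of the 8 mice without hyperovulation, 74.9 CPM, with the others at 49.9 to 61.1. Each of these means rests on 4 libraries. Among 84 groups of mouse means tested, 5 were apart in this way, and chance alone sets apart about 1 in 20 groups.

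The response to CR differed between oocytes and cumulus cells for Sirt6 and Sirt7 in the edgeR interaction test. The difference of log2 fold changes was 0.90 for Sirt6 (SE 0.23, adjusted p = 0.00386) and 0.81 for Sirt7 (SE 0.19, adjusted p = 0.00168), in both cases higher in cumulus cells. With the complex as a block in limma, chosen after seeing the data, both were called (0.75 and 0.77, adjusted p = 0.0401 and 0.0237), and with counts summed per mouse neither was (0.54 and 0.65, adjusted p = 0.571 and 0.488). The shares of all genes called under these alternatives are not given here.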

How the results depend on the processing

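Of all genes tested in Middle against CR oocytes, 30% were called in the main test, 16% summed per mouse and 27% with length and GC correction. For the other alternatives below the shares of all genes are not given here. Their counts show only how the calls of sirtuins moved with the processing. Between Middle and CR oocytes 5 sirtuins were called, and 3 without a filter, 3 with counts summed per mouse, 2 with length and GC correction and 3 without oocytes above 5% cumulus markers, an alternative chosen after seeing the data. Leaving out 1 mouse gave 3 to 5, with 3 without CR2, Middle1, Middle2 or Middle4. In cumulus cells the count of 0 became 0 to 1 when 1 mouse was left out for Middle against CR (1 without CR3), Young against Middle (1 without Middle1) and 2 against 4 months (1 without 2mo34), as it did for Middle against Old in oocytes (1 without Old3). Of Young against Old, the 1 call became 0 with counts summed per mouse in both cell types and 0 with the cumulus marker covariate in oocytes, and 0 to 1 with a mouse left out (0 without Old1_2, Young1 or Young2 in oocytes, and without Old1_2 or Young2 in cumulus cells). With length and GC correction the 1 call in oocytes was Sirt6 (0.46) in place of Sirt7. The 1 call with hyperovulation in cumulus cells became 0 with filterByExpr (Sirt6 removed), counts summed per mouse, length and GC correction or the label prefix, and 0 to 2 with a mouse left out. The 2 calls of the diet response became 0 summed per mouse and 3, with Sirt4, with filterByExpr and without CR1 or Middle3, the 0 calls of the age response 0 to 1 (1 without Old3), and the 0 calls of the hyperovulation response 1 with filterByExpr and 0 to 1 with a mouse left out (1 without 2mo35, 2moNoH8 or 2moNoH9).

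With the complex as a replicate block, each oocyte paired with its own cumulus pool, 5 sirtuins (first set, with the call of Sirt2 lost) and 7 (second set) were called, and 2, 0 and 0 in the responses to diet, age and hyperovulation, where this block was chosen after seeing the data. This fit used limma-voom, since edgeR with a term for each complex could not be completed. The shares of all genes called in this fit are not given here. In the main tests they were 90% (first set) and 92.2% (second set) between cell types. For the responses to diet, age and hyperovulation they were 12.8%, 4.74% and 4.07%. Between cell types in the first set Sirt2 turned from -0.16 to 0.0944 with DESeq2 and 0.0806 with RLE normalization, neither called. Of 2322 values of single sirtuins under an alternative, 2257 stayed on their side of the threshold, 47 lost a call, 16 gained one and 2 turned, and 188 uncalled values changed sign. Where no reason is given, the cause was not tested. Sirt4 and Sirt5 in cumulus cells, Sirt2 and Sirt6 in cumulus cells of the second set and Sirt3 in oocytes rest on under 10 counts per library at the median.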
